A study of Mus musculus with 12 samples.

Results

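The BH3-only genes other than Bad were followed through breast tumours of 12 mice. The set is the 7 genes of the count table with the symbols Bcl2l11, Bmf, Bid, Bbc3, Bik, Pmaip1 and Hrk, out of 55487 genes, and each symbol matched 1 gene. Tumours came from 6 Bad3SA mice, in which regulatory serines of BAD are replaced by alanine, and from 6 Bad_WT mice with the wild-type gene. All were C57BL/6J mice carrying the MMTV-PyMT transgene, whose viral promoter switches on the polyoma middle T oncogene mainly in mammary epithelium, so the controls carried the oncogene too. Each library was 1 end-point tumour of a separate mouse, at ages of 22.9 to 31.1 weeks in Bad3SA and 21.3 to 27.1 weeks in Bad_WT.

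BH3-only proteins are the stress sensors of mitochondrial apoptosis. Each carries a single BH3 helix that docks into the groove of BCL2, BCL-XL or MCL1 and displaces what they hold, and some also activate the pore formers BAX and BAK directly. BAD is itself a BH3-only protein. Phosphorylated BAD is held away from BCL-XL, and the 3SA form cannot be held in this way, so the comparison shows what the transcripts of its relatives did in tumours with such a form. Most of the relatives are set by transcription: forkhead FOXO factors act on Bcl2l11 and Bbc3, p53 on Bbc3 and Pmaip1, and stress kinases on Bcl2l11 and Hrk. In the mammary gland BIM and BMF, the products of Bcl2l11 and Bmf, are known for clearing the lumen of ducts and for killing epithelial cells that lose their attachment.

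Upstream sequences are shown for Bcl2l11, Bmf and Hrk, the members with an entry in the promoter table whose levels differed most between individual tumours in the results below. Each run is the 250 bases before a RefSeq start site on GRCm38.p6, read along the strand of the gene, with motif matches in capitals.
Bcl2l11 (chr2:128125788-128126037, plus strand): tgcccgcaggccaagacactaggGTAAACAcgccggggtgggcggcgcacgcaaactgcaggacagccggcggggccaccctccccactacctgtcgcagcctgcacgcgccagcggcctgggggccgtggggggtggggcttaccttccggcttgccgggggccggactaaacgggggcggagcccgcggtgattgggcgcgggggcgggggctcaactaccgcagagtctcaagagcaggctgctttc
Bmf (chr2:118549687-118549936, minus strand): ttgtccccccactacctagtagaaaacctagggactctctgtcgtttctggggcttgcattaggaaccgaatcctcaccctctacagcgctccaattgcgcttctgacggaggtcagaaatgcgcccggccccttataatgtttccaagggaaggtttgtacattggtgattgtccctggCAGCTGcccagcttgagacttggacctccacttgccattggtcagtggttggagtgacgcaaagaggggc
Hrk (chr5:118169514-118169763, plus strand): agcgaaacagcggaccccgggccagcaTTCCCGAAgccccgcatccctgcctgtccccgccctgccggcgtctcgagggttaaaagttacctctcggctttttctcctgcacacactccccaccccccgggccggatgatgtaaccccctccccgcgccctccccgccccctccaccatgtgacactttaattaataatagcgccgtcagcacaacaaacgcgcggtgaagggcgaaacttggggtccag
The capitals mark the forkhead motif GTAAACA in Bcl2l11, the E-box CAGCTG in Bmf and the pair of heat shock factor half-sites TTCNNGAA in Hrk. These 3 motifs and the AP-1 motif TGANTCA were searched on both strands, and no matches overlapped. Of 32851 windows of this length in the RefSeq table, 3.17% held the forkhead motif, 13.0% the E-box, 7.17% the heat shock pair and 6.75% the AP-1 motif. The table gave 10 windows for 5 of the 7 members. The forkhead motif occurred in 1 of 2 Bcl2l11 windows and 1 of 3 Bbc3 windows, the E-box in all 3 Bmf windows and the heat shock pair in the Hrk window. The single Bid window held none of the 4 motifs. A match describes these letters only and is not evidence of binding.

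Depth ran from 58096172 to 82517445 counts in Bad3SA tumours and from 64935510 to 83296370 in Bad_WT tumours. Levels are given in CPM, counts scaled by library size with TMM normalisation, and 3 counts were worth 0.0346 to 0.0544 CPM depending on the library. All 9 luminal epithelial markers were detected, with a list mean of 8.98 to 9.43 log2 CPM in Bad3SA and 9.05 to 9.32 in Bad_WT. Bad_WT 5 and Bad_WT 6 stood apart from the other 10 tumours in heat shock genes, at 8.25 and 8.26 log2 CPM against 6.81 to 7.32, and in immediate-early genes, at 6.19 and 6.05 against 4.62 to 5.47. Bad did not differ detectably, at 48.8 ± 12.4 CPM in Bad3SA and 47.0 ± 8.30 CPM in Bad_WT (SD, n = 6 each). In bulk tumour RNA, fewer cells of a type and less RNA per cell cannot be told apart.

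None of the BH3-only genes passed the test between genotypes. Of the 7 genes, 6 passed the filter on low counts and entered the fit. Their number called was 0, against 1.38% of all 18019 genes tested (249 genes; edgeR quasi-likelihood test, Benjamini-Hochberg adjusted p under 0.05). At an unadjusted p under 0.05 the count was 1 of 6 members, against 16.2% of all genes. The log2 fold change of Bad3SA over Bad_WT was negative for 4 of 6 members, against 49.6% of all genes, with a median of -0.19 against 0.0033 over all genes. Without Bad_WT 5 and 6 the median of the members was -0.31. DESeq2 and limma voom also called 0 members, against 4.21% and 3.21% of all genes, and the authors' deposited table called 0 against 4.02%. At an unadjusted p under 0.05 DESeq2 had 2 of 7 members, Bcl2l11 and Pmaip1, against 10.6% of 38316 genes. That larger set includes genes with low counts that the edgeR filter removed, so the share cannot be set beside the 16.2%. The count of members called by edgeR was also 0 with end-point age as a covariate (0.405% of all genes), without Bad_WT 5 and 6 (1.18%), in tumours 1 to 3 alone (6.51%) and in tumours 4 to 6 alone (0.398%). For no tested member did the CPM values of the 2 genotypes separate, which they did for 2.23% of all genes.

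**Figure D1:**
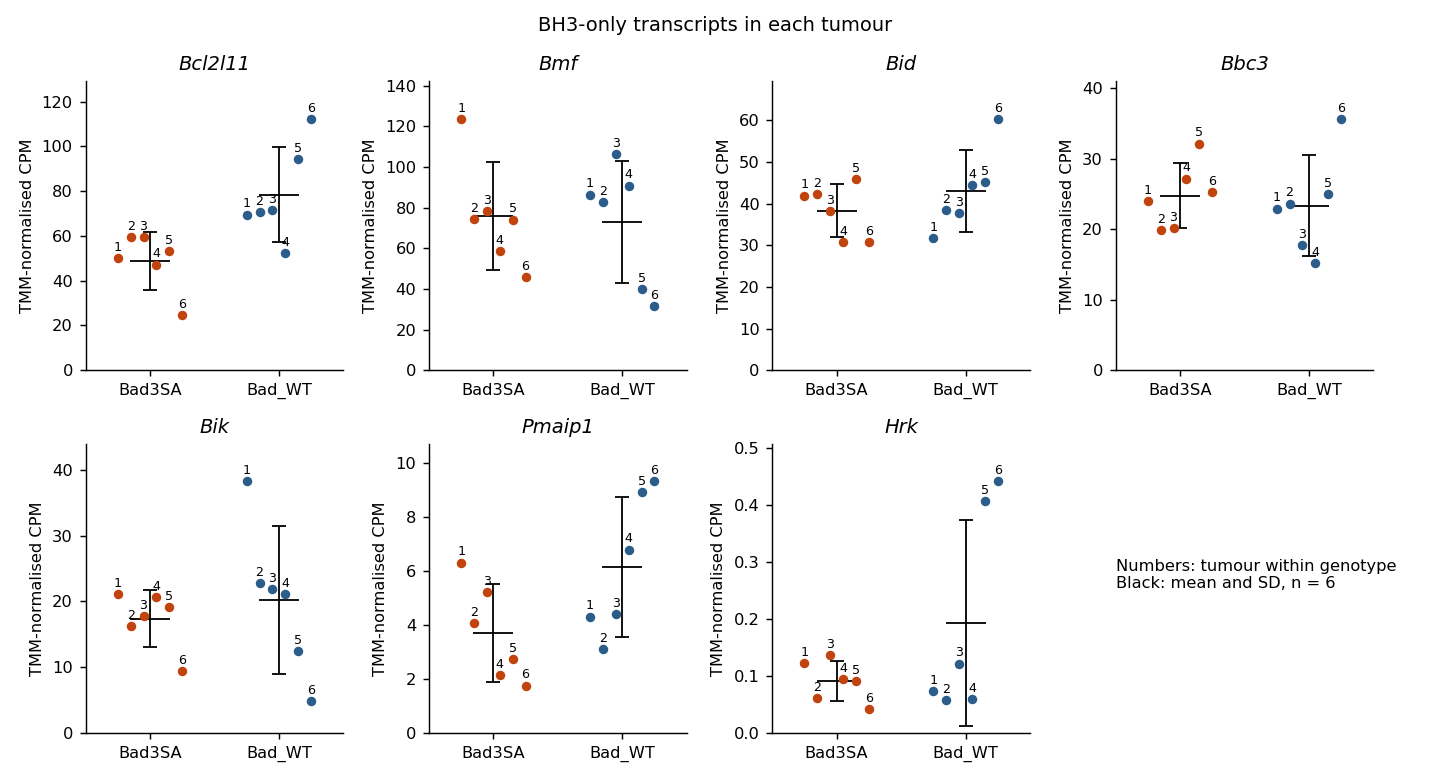
TMM-normalised CPM of the 7 BH3-only genes in each tumour, with Bad3SA (red) left of Bad_WT (blue). Points are single tumours, numbered within their genotype, and black marks give the mean and SD of 6. The genotypes overlap in every panel, and Bad_WT 5 and 6 lie highest for Bcl2l11, Pmaip1 and Hrk and lowest for Bmf.

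Bcl2l11, which encodes BIM, the BH3-only protein that binds every pro-survival BCL2 protein, had the smallest p of the 7. The gene (ENSMUSG00000027381) lies on chromosome 2 at 128126038 to 128162547 on GRCm38. Its level ran from 24.5 to 59.6 CPM in Bad3SA, with a median of 51.6, and from 52.4 to 112 CPM in Bad_WT, with a median of 71.0. Bad3SA 1, 4 and 6 lay below every Bad_WT tumour. Bad3SA 2, 3 and 5, at 59.4, 59.6 and 53.2 CPM, overlapped only with Bad_WT 4 at 52.4 CPM. The means were 49.0 ± 13.0 CPM in Bad3SA and 78.4 ± 21.3 CPM in Bad_WT (SD, n = 6 each). The fitted difference, Bad3SA over Bad_WT, was -0.68 log2 units (SE 0.22; adjusted p = 0.168 by edgeR). An exact two-sided permutation test over the 924 splits of the tumours gave an unadjusted p of 0.00866, where 0.00217 is the smallest such a test can give.

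The size of the Bcl2l11 difference depended on which tumours entered. It was -0.43 (SE 0.22, edgeR adjusted p = 0.405) without Bad_WT 5 and 6, which held 94.3 and 112 CPM. It was -0.34 (SE 0.10, edgeR adjusted p = 0.0996) in tumours 1 to 3 of each genotype and -1.08 (SE 0.36, edgeR adjusted p = 0.152) in tumours 4 to 6. Tumours 4 to 6 include Bad_WT 5 and 6, the highest of the series for Bcl2l11, and Bad3SA 6, the lowest. Adjusted for end-point age the difference was -0.52 (SE 0.29, edgeR adjusted p = 0.750). In tumours 1 to 3 the genotypes did not overlap for Bcl2l11 (49.9 to 59.6 CPM in Bad3SA and 69.5 to 71.4 CPM in Bad_WT) or Bik, 2 of 6 tested members, against 27.9% of all genes in those tumours. The sign of the Bcl2l11 difference was negative in each of these fits. Lymphocytes depend on BIM for their turnover. Of 10 T and NK cell markers 9 had a positive log2 fold change and 0 passed. Their median was 0.61, against 0.33 without Bad_WT 5 and 6 and 0.10 adjusted for age, and their summed level was 11.9 to 24.99 CPM in Bad3SA and 3.73 to 16.6 CPM in Bad_WT. Bad_WT 6 held the most Bcl2l11 and the lowest sum of these markers, whose part in the Bcl2l11 level was not tested.

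Pmaip1, which encodes NOXA, the p53-induced sensitizer that antagonises MCL1, was the second member with a sizeable negative estimate. The gene (ENSMUSG00000024521) lies on chromosome 18 at 66458533 to 66465565. Its level ran from 1.75 to 6.31 CPM in Bad3SA (median 3.41) and from 3.12 to 9.31 CPM in Bad_WT (median 5.60). The tumours numbered 1 to 3 and 4 to 6, a split known from earlier results, differed in opposite ways in the 2 genotypes. Bad3SA 1, 2 and 3 held 6.31, 4.07 and 5.22 CPM and Bad3SA 4, 5 and 6 held 2.13, 2.74 and 1.75 CPM. The order was opposite in Bad_WT, where tumours 1, 2 and 3 held 4.31, 3.12 and 4.40 CPM and tumours 4, 5 and 6 held 6.79, 8.91 and 9.31 CPM.

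Over all tumours the Pmaip1 log2 fold change was -0.73 (SE 0.36, edgeR adjusted p = 0.342). It was 0.38 (SE 0.25, adjusted p = 0.430) in tumours 1 to 3 alone and -1.94 (SE 0.30, adjusted p = 0.0539) in tumours 4 to 6 alone. In tumours 4 to 6 the genotypes did not overlap for Pmaip1, 1 of 6 tested members, against 29.4% of all genes in those tumours. Those tumours include Bad_WT 5 and 6, the highest of the series for Pmaip1, and Bad3SA 6, the lowest. The title numbers mark no batch in the labels, and the difference between these estimates was not tested. The estimate was -0.33 (SE 0.38, adjusted p = 0.710) without Bad_WT 5 and 6. Adjusted for end-point age it was -0.19 (SE 0.41, adjusted p = 0.987), and limma voom with quality weights gave -0.27 (adjusted p = 0.723). Pmaip1 was also the 1 member with an unadjusted p under 0.05 for the slope with age, which 8.44% of all genes had. The slope was -0.16 log2 units per week (SE 0.070, edgeR adjusted p = 0.583). Age and genotype were partly confounded.

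**Figure D2:**
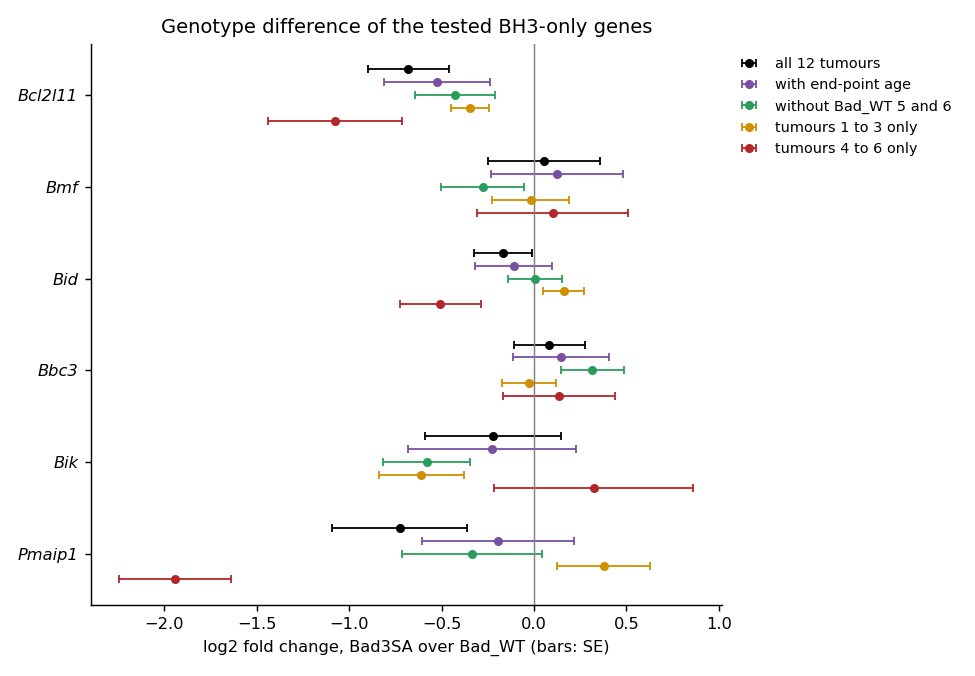
Log2 fold change of Bad3SA over Bad_WT for the 6 tested BH3-only genes, with bars of 1 SE, in 5 fits that differ in tumours or covariate. Bcl2l11 is negative in all 5, while Pmaip1 runs from -1.94 in tumours 4 to 6 to 0.38 in tumours 1 to 3.

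Bmf and Bik had the highest r of the 15 pairs over all 12 tumours, though not without Bad_WT 5 and 6, and showed no detectable genotype difference. BMF is a sensor of lost attachment that is tethered to the actin motor complex, and its gene (ENSMUSG00000040093) lies on chromosome 2 at 118528757 to 118549687. Bmf ran from 45.8 to 124 CPM in Bad3SA (median 74.3) and from 31.7 to 106 CPM in Bad_WT (median 84.5). Bad3SA 1 lay above the Bad_WT range and the other 5 Bad3SA tumours inside it, and the 2 lowest values of the series were Bad_WT 5 at 39.9 CPM and Bad_WT 6 at 31.7 CPM. The log2 fold change was 0.054 (SE 0.30, edgeR adjusted p = 0.940), and it turned to -0.28 (SE 0.22, adjusted p = 0.588) without these tumours.

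BIK is an endoplasmic reticulum BH3-only protein of epithelial cells. Its gene (ENSMUSG00000016758) lies on chromosome 15 at 83526862 to 83544634, with a processed pseudogene on the other strand inside it. Bik ran from 9.39 to 21.2 CPM in Bad3SA (median 18.4) and from 4.89 to 38.3 CPM in Bad_WT (median 21.5). All 6 Bad3SA tumours lay inside the Bad_WT range, which was wide at both ends: Bad_WT 1 was highest and Bad_WT 6 lowest of all 12. The log2 fold change was -0.22 (SE 0.37, edgeR adjusted p = 0.781). Without Bad_WT 5 and 6 it was -0.58 (SE 0.24, adjusted p = 0.304).

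Bid and Bbc3 were the steadiest members. BID is cut by caspase 8 into its active form and so links death receptors to mitochondria. Its gene (ENSMUSG00000004446) lies on chromosome 6 at 120891930 to 120916853 and overlaps Bcl2l13 on the other strand. Whether counting used strand is not stated, so Bid and Bcl2l13 reads in the overlap cannot be told apart. Bid ran from 30.7 to 45.9 CPM in Bad3SA (median 40.0) and from 31.7 to 60.4 CPM in Bad_WT (median 41.4). The ranges overlapped apart from Bad3SA 4 and 6 at the bottom and Bad_WT 6 at the top. The log2 fold change was -0.17 (SE 0.16, edgeR adjusted p = 0.605). It was 0.0041 (SE 0.15, adjusted p = 0.993) without Bad_WT 5 and 6.

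Bbc3 encodes PUMA, the main BH3-only effector of p53. The gene (ENSMUSG00000002083) lies on chromosome 7 at 16308393 to 16318205. Its level ran from 19.9 to 32.1 CPM in Bad3SA (median 24.6) and from 15.2 to 35.7 CPM in Bad_WT (median 23.3). Every Bad3SA tumour lay inside the Bad_WT range. The log2 fold change was 0.084 (SE 0.19, edgeR adjusted p = 0.847). Without Bad_WT 5 and 6 it was 0.32 (SE 0.17, adjusted p = 0.431).

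Hrk, a BH3-only gene best known from neurons deprived of growth factor, was close to the limit of detection and did not pass the filter. The gene (ENSMUSG00000046607) lies on chromosome 5 at 118164648 to 118189478. Bad3SA tumours held 9, 5, 9, 6, 5 and 3 counts. Bad_WT tumours 1 to 4 held 6, 5, 10 and 4 counts, while Bad_WT 5 held 29 and Bad_WT 6 held 27. The level ran from 0.0417 to 0.136 CPM in Bad3SA and from 0.0577 to 0.122 CPM in the first 4 Bad_WT tumours, against 0.407 and 0.441 CPM in Bad_WT 5 and 6. The sum was 37 counts in Bad3SA and 81 counts in Bad_WT. With no filter the log2 fold change was -1.09 (SE 0.59, edgeR adjusted p = 0.388), and DESeq2 gave -1.08 (SE 0.62, adjusted p = 0.379). The sign turned without Bad_WT 5 and 6, where the edgeR value was 0.19 (SE 0.58, adjusted p = 0.895). It was -0.74 without Bad_WT 5 alone and -0.65 without Bad_WT 6 alone. Neuron and Schwann cell markers summed to 346 to 573 CPM in Bad3SA and 386 to 584 CPM in Bad_WT, with 584 and 520 CPM in Bad_WT 5 and 6. Their part in the Hrk level was not tested.

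Per length of exon, 4 of the genes stood close together at the top. Over all 12 tumours Bmf averaged 14.2 CPM per kb of exon, Bik 11.8, Bid 11.4, Bbc3 11.3, Bcl2l11 7.93, Pmaip1 1.80 and Hrk 0.0250. Bad, for comparison, averaged 19.1 ± 4.86 CPM per kb in Bad3SA and 18.4 ± 3.25 in Bad_WT. Bmf exceeded Bik in 9 of 12 tumours, with a mean log2 ratio of 0.31 (SD 0.43). Bik exceeded Bid and Bid exceeded Bbc3 in 7 of 12 each. Their mean log2 ratios were -0.079 (SD 0.93) and 0.027 (SD 0.38). Differences between these neighbours were not tested. Bbc3 exceeded Bcl2l11 in 11 tumours, the exception being Bad_WT 3. Bcl2l11 exceeded Pmaip1, and Pmaip1 exceeded Hrk, in all 12. With the longest annotated transcript as the length, Bid came first, then Bmf and Bik, and the other 4 kept their places. All exons together span 8029 bases for Bcl2l11 and 2124 for Bbc3, against 5036 and 1814 in the longest transcript. The step from Bbc3 down to Bcl2l11 is therefore smaller by that length, and the count of 11 tumours holds for all exons together. The isoforms of BIM and other splice forms are pooled in these gene counts.

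**Figure D3:**
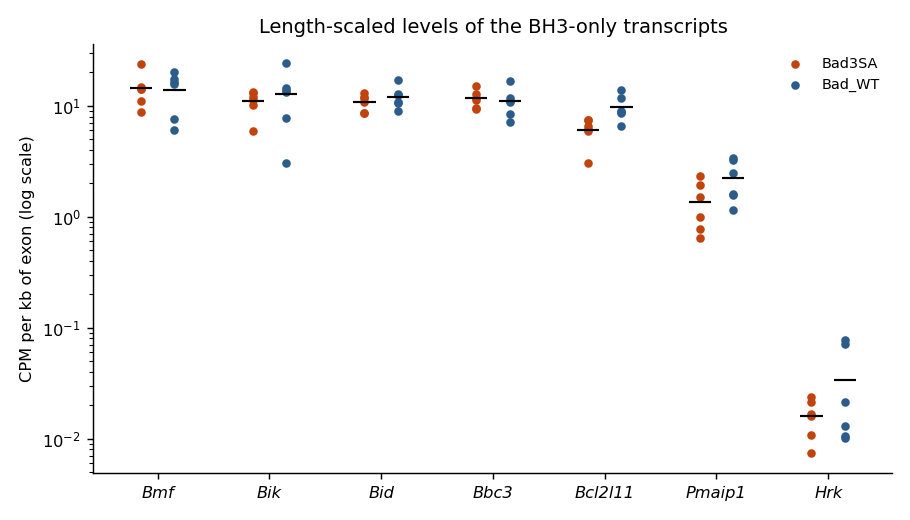
CPM per kb of exon on a log scale for each BH3-only gene, in order of the mean over 12 tumours, with Bad3SA (red) left of Bad_WT (blue). Points are tumours and black lines are means of 6. Bmf, Bik, Bid and Bbc3 overlap. Bcl2l11 has a lower mean but its points overlap theirs, and Pmaip1 has a lower mean still. Hrk lies between 0.00735 and 0.0777 CPM per kb.

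The mixture of BH3-only transcripts differed between tumours. The summed level of the 7 genes ran from 38.8 to 68.5 CPM per kb in Bad3SA and from 54.9 to 70.5 in Bad_WT. Bmf made up 21.3% to 34.4% of that sum in Bad3SA. It made up 23.3% to 31.9% in Bad_WT 1 to 4 and 13.8% and 9.99% in Bad_WT 5 and 6. The ratio of Bcl2l11 to Bmf in CPM was 0.404 to 0.808 in Bad3SA and 0.577 to 0.855 in Bad_WT 1 to 4, against 2.36 in Bad_WT 5 and 3.54 in Bad_WT 6. This ratio is taken within a tumour and does not depend on the scaling between libraries.

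Bad_WT 5 and 6 lay at both ends of the members' ranges. Both tumours lay above the other 10 for Bcl2l11, Pmaip1 and Hrk, and below them for Bmf. Of the 6 tested members 3 lay outside the range of the other 10 tumours in both, which was also true of 17.8% of all 18019 genes tested. These tumours were singled out with their values known. Heat shock genes summed to 4934 and 5279 CPM there against 2728 to 3839 CPM in the others, and immediate-early genes to 1321 and 1257 CPM against 494.9 to 744.4 CPM. Transcription factors known to act on BH3-only genes summed to 1019 and 1088 CPM there, against 678.7 to 802.7 CPM in the others. Their mean log2 CPM, 5.37 and 5.08, lay inside the range of the others, 4.95 to 5.63. The part of any of these lists in the BH3-only levels was not tested. Bad3SA 6 stood apart in another way, with the lowest Bcl2l11, Pmaip1 and Hrk of all 12 tumours and the lowest Bmf and Bik of the Bad3SA tumours, while its heat shock genes lay at 6.83 log2 CPM.

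**Figure D4:**
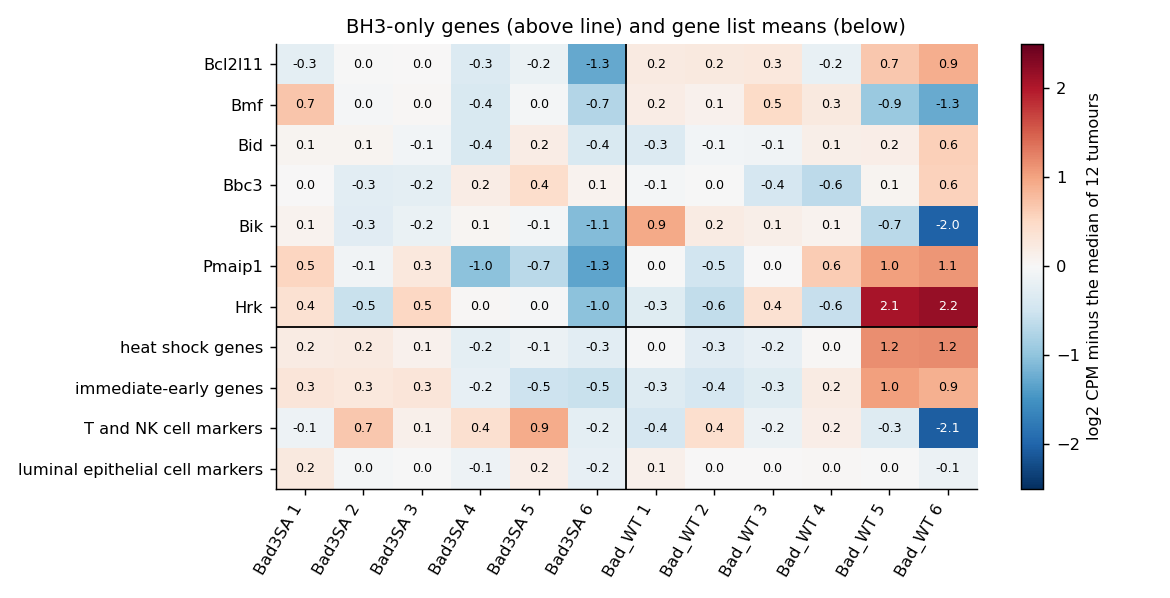
Log2 CPM of each BH3-only gene, and the mean log2 CPM of 4 gene lists below the line, shown as the difference from the median of 12 tumours. Columns are tumours, Bad3SA left of Bad_WT. In Bad_WT 5 and 6 Hrk stands at 2.06 and 2.17 and Bmf at -0.94 and -1.27 relative to their medians, beside heat shock genes at 1.17 and 1.18.

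Variation within a genotype differed widely among the members. The pooled within-genotype SD of log2 CPM was 0.28 for Bid and 0.35 for Bbc3, below the median of 0.37 over all genes tested. It was 0.44 for Bcl2l11, 0.61 for Bmf, 0.69 for Pmaip1, 0.79 for Bik and 1.00 for Hrk. Without Bad_WT 5 and 6 it was 0.42 for Bik, 0.39 for Bmf and 0.54 for Hrk, beside 0.65 for Pmaip1, 0.40 for Bcl2l11, 0.28 for Bbc3 and 0.23 for Bid, and the median over all genes was 0.35. The highest tumour exceeded the lowest 1.96-fold for Bid. The ratio was 4.59-fold for Bcl2l11 and 2.38-fold without Bad3SA 6. For Bik it was 7.83-fold, and 4.07-fold without Bad_WT 6. It also moved by over 1.5 times without Bad_WT 1.

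Of the 15 pairs of tested members, 3 varied together over the 12 tumours. Bmf and Bik had a Pearson r of 0.82 (permutation p = 8.60e-04, adjusted over 15 pairs p = 0.0129) and a Spearman rho of 0.82 (permutation p = 0.0019, adjusted p = 0.0285). Without the 2 tumours farthest in Bmf, which were Bad_WT 5 and 6, r was 0.62 (permutation p = 0.0581, adjusted p = 0.174), so the call rests on those tumours. Bcl2l11 and Pmaip1 had an r of 0.74 (permutation p = 0.00414, adjusted p = 0.0311) and a rho of 0.59 (permutation p = 0.0471, adjusted p = 0.177), and r was 0.44 without Bad3SA 6 and Bad_WT 6. Bid and Pmaip1 had an r of 0.72 (permutation p = 0.00727, adjusted p = 0.0364) and a rho of 0.62 (permutation p = 0.0371, adjusted p = 0.177), and r was 0.50 without the same tumours. With log2 CPM centred within genotype, Bmf with Bik was the 1 pair that passed (r = 0.82, permutation adjusted p = 0.00795). Without Bad_WT 6 no pair passed.

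Bmf and Pmaip1 did not pass over all 12 tumours (r = -0.095, permutation p = 0.768, adjusted p = 0.768; rho = 0.070, permutation p = 0.834, adjusted p = 0.956). In Bad3SA they ranked the 6 tumours identically (rho = 1, r = 0.91, exact permutation p = 0.00278 for each, adjusted over 15 pairs p = 0.0417; 0.00278 is the smallest p that rho can reach with 6 tumours without ties). In Bad_WT r was -0.78 (exact permutation p = 0.0875, adjusted p = 0.131) and rho -0.49 (exact permutation p = 0.356, adjusted p = 0.381). Over the 10 tumours other than Bad_WT 5 and 6 r was 0.85 (permutation p = 0.00164, adjusted p = 0.0246) and rho 0.85 (permutation p = 0.00272, adjusted p = 0.0408). Bid and Bik were the 1 pair that passed within Bad_WT, with an r of -0.96 (exact permutation p = 0.00278, adjusted p = 0.0417) and a rho of -0.94 (exact permutation p = 0.0167, adjusted p = 0.0833). In Bad3SA their r was 0.48 (exact permutation p = 0.396, adjusted p = 0.540) and rho 0.26 (exact permutation p = 0.658, adjusted p = 0.760). Over the same 10 tumours r was 0.80 for Bcl2l11 and Bik (permutation p = 0.0168, adjusted p = 0.126) and rho 0.58 (permutation p = 0.0878, adjusted p = 0.264). The differences in r between the genotypes were not tested, and these subsets were chosen with the values known.

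**Figure D5:**
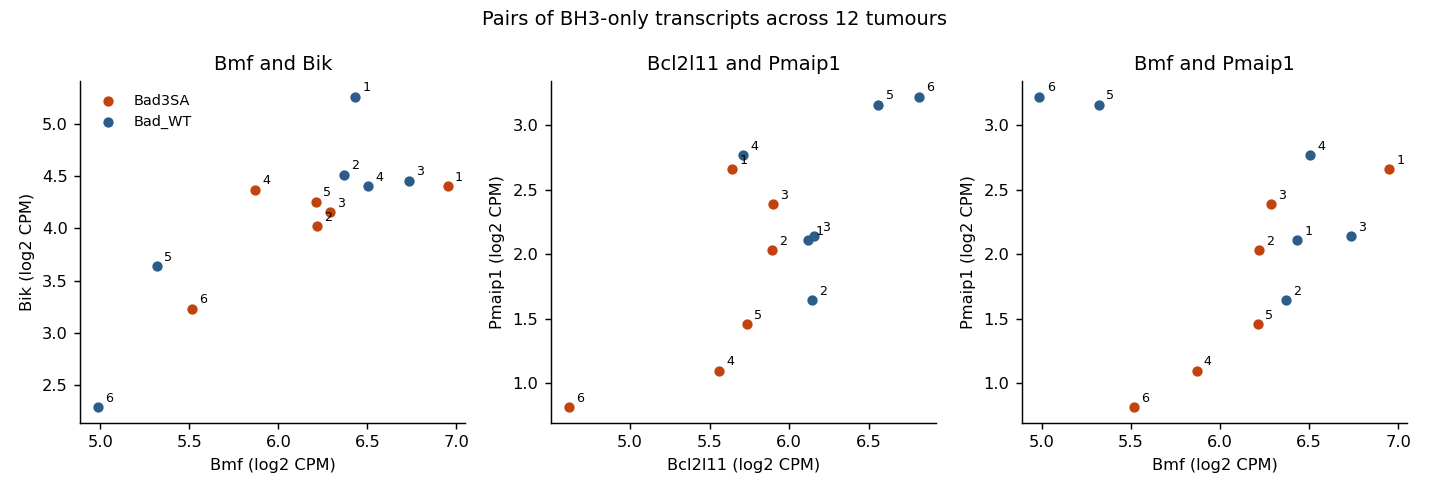
Log2 CPM of 3 pairs of BH3-only genes in 12 tumours, Bad3SA in red and Bad_WT in blue, numbered within genotype. Bmf and Bik, and Bcl2l11 and Pmaip1, are positively related, and for Bmf and Pmaip1 Bad_WT 5 and 6 lie at the upper left of a line formed by the other 10.

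The proteins that BH3 helices bind gave no call. Of 8 anti-apoptotic genes 7 were tested and 0 passed, with a median log2 fold change of 0.0031 against 0.0033 over all genes. Bcl2, the founder of the family, ran from 35.2 to 59.4 CPM in Bad3SA and from 55.5 to 71.8 CPM in Bad_WT, and its difference was -0.47 log2 units (SE 0.14, edgeR adjusted p = 0.139). Mcl1, the partner of NOXA and BIM, averaged 278 ± 37.5 CPM in Bad3SA and 260 ± 23.1 CPM in Bad_WT (0.096, SE 0.11), and Bcl2l1, which encodes BCL-XL, 134 ± 28.5 CPM in Bad3SA and 124 ± 4.68 CPM in Bad_WT (0.12, SE 0.12). Bcl2l2 stood at -0.017. The A1 genes Bcl2a1a, Bcl2a1b and Bcl2a1d, near-identical copies between which reads could be split, stood at 3.05e-04, 0.47 and 0.0031. Bcl2l10 was at 0 in all Bad3SA tumours and at most 0.0327 CPM in Bad_WT, under the level of 3 counts. Among the pore formers, Bax and Bak1 stood at 0.34 and 0.20 and Bok at -0.59 (SE 0.20), and 0 of 3 passed.

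Upstream factors and other targets of those factors also gave no call. Of 10 transcription factors known to act on BH3-only genes, Ddit3 did not match a single gene of the counts and was left out. Of the 9 tested, 2 were positive, 7 negative and 0 passed, with a median log2 fold change of -0.16. Without Bad_WT 5 and 6 that median was 0.044. The smallest p values belonged to Foxo3, a forkhead activator of Bcl2l11 (128 ± 22.4 CPM in Bad3SA and 151 ± 10.1 CPM in Bad_WT; -0.23, SE 0.12), Myc (-0.29, SE 0.19) and E2f1 (-0.21, SE 0.15).

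Among 15 p53 targets outside the family 6 were positive, 9 negative and 0 passed, with a median of -0.16 that was -0.021 without Bad_WT 5 and 6. Aen, a p53-induced nuclease, had the smallest p (23.5 ± 1.80 CPM in Bad3SA and 31.7 ± 8.77 CPM in Bad_WT; -0.43, SE 0.16, edgeR adjusted p = 0.217), followed by Btg2 at -0.33 and Fas at 0.46. Among 10 FOXO targets 6 were positive, 4 negative and 0 passed, with a median of 0.10. Sesn1 stood at -0.47 (SE 0.15, edgeR adjusted p = 0.158), Irs2 at -0.84 (SE 0.31) and Klf15 at 0.83 (SE 0.52).

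The 10 genes whose proteins cleave, tether or phosphorylate BH3-only proteins had a median of 0.024, 6 positive, and 0 passed. Btrc, a subunit of the ubiquitin ligase that degrades phosphorylated BIM, had the smallest p (23.1 ± 1.92 CPM in Bad3SA and 29.9 ± 3.48 CPM in Bad_WT; -0.37, SE 0.10, edgeR adjusted p = 0.117). Casp8, which cuts BID, stood at 0.15 and Mapk8, a stress kinase gene, at 0.16.

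The genes most like each member over the 12 tumours were found by Pearson correlation of log2 CPM among 12204 other genes with a mean of at least 1 log2 CPM. For Bcl2l11 they were Baz2b (r = 0.94) and Inka2 (r = 0.93). Inka2 averaged 9.84 CPM in Bad3SA and 16.6 CPM in Bad_WT and fell by 0.76 on the log2 scale (edgeR adjusted p = 0.0372). The pairs for the other members were Smagp and Ctsh for Bmf (both 0.94), Rpia and Pdcl3 for Bid (both 0.92), Zfp958 and Ncaph for Bbc3 (0.93 and 0.92), Dipk1a and Lag3 for Bik (0.95 and 0.94), and Sdc1 and Pak1 for Pmaip1 (both 0.97). Of these 12 genes Inka2 was the 1 that passed between genotypes, against 1.38% of all genes tested. Inka2 was picked for its likeness to Bcl2l11, so its difference is not independent of that of Bcl2l11. The tumours share libraries and depth across these correlations, which are given as a description.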

How the data were processed

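PolyA RNA of 12 breast tumours was read in pairs, per the series' design text. One deposited table holds each tumour's unnormalised counts by gene. Of the tools, fastp 0.23.1, STAR 2.7.9a and DESeq2 appear, with GRCm38, in the submitters' processing notes. How reads were assigned to genes, and whether by strand, was not given. The authors' deposited comparison holds a mean signal of normalised counts, a log2 fold change, its standard error and Wald score, and p-values, per the file headers. Its log2 fold change runs as Bad_WT over Bad3SA (Spearman rho of -0.997 with the fit here across 18019 genes, which are not independent replicates).

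Genes were filtered with filterByExpr, TMM-normalised and tested across all genes with the quasi-likelihood F test of edgeR 4.0.16 (robust), with limma 3.58.1 and DESeq2 1.42.0 as alternatives, in R 4.3.3. Fold changes are Bad3SA over Bad_WT. The SE is the absolute log2 fold change over the square root of F. Log2 CPM uses a prior count of 0.5. Levels of different genes were divided by exon lengths of GENCODE release 21 for mouse. No transcript of another gene matched a member at 95% identity over 100 bases. Pairs were tested with 100000 permutations. The fit was tested on simulated counts of 17763 genes, of which only a small part was changed. Of the genes changed by 1 log2 unit 38.0% were called, and 78.0% of those changed by 2. The simulated counts held no shift of single tumours and no age difference.

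The members, gene lists, tumour subsets and alternatives were chosen with earlier results of these data known. Named genes were the members, Bad, their binding partners, up to 3 genes per other list by p, and the 2 genes most like each member.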

Additional observations from a re-analysis of the deposited data

Results flagged for a closer look

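The Bcl2l11 level of 24.5 CPM in Bad3SA 6 lay far below the other 5 Bad3SA tumours, which held 47.2 to 59.6 CPM. Its gap to the nearest of them was 0.647 of the range of the group, above the critical value of Dixon's test for 6 samples. The test was applied to 14 groups (7 genes in 2 genotypes), and chance marks about 1 in 20. Without Bad3SA 6 the Bcl2l11 log2 fold change was -0.54 (SE 0.17, edgeR adjusted p = 0.186).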

How the results depend on the processing

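No BH3-only gene passed in any of 159 fits of single members, the lowest adjusted p being 0.0539 for Pmaip1 in tumours 4 to 6 alone. Bcl2l11 kept its negative sign throughout, between -0.77 and -0.54 with each tumour left out in turn. Pmaip1 ran from -0.95 to -0.57 and Bid from -0.22 to -0.045 in those fits, and near-zero estimates changed sign: Bmf ran from -0.16 to 0.17, Bbc3 from -0.021 to 0.24 and Bik from -0.43 to 0.066. Signs also turned in tumours 1 to 3 alone for Pmaip1 (0.38), Bid (0.16), Bmf (-0.018) and Bbc3 (-0.026), in tumours 4 to 6 alone for Bik (0.32), and without Bad_WT 5 and 6 for Bmf (-0.28), Bid (0.0041) and, with no filter, Hrk (0.19). Hrk ran from -1.28 to -0.65 with each tumour left out, fits that were added after the data were seen. The cause was not tested.

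Over all genes 249 calls became 998 with DESeq2, 579 with limma voom, 163 with at least 1 CPM in 6 tumours, 73 with end-point age, 1201 in tumours 1 to 3 and 73 in tumours 4 to 6. The count was 147 to 315 with each tumour left out, moving over 1.5 times without Bad3SA 3, Bad3SA 4, Bad_WT 1, Bad_WT 3 or Bad_WT 5. With the title number as a replicate block it was 105. Same-numbered tumours correlated at -0.264 to 0.272. These values were not tested and do not settle whether the numbers pair the samples. The block changed no member's call. Of the 15 pairs of members, 3 passed by Pearson r over all tumours. The count was 1 by Spearman rho and 1 centred within genotype, both times Bmf with Bik. It was 1 without Bad_WT 5 and 6, where the pair was Bmf with Pmaip1 and none of those 3 passed. With each tumour left out the count was 0 to 4 (1 without Bad3SA 4 or Bad_WT 5, 0 without Bad_WT 6). By level, 4 of 7 genes kept their place with the longest transcript as length, and 4 to 7 with each tumour left out. Hrk, at 3 to 29 counts, was limited by depth.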
